A study of Mus musculus with 17 samples.

Results

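The comparison set 4 arrays labelled as primary hepatocytes, the main cells of the liver, against 4 arrays of undifferentiated adult hepatic progenitor cells, which made up 8 of the 17 single-colour mouse arrays of the study. The arrays were chosen by their labels, and no measured value entered the choice. All 8 samples came from mice that carried the alleles Foxl1-CRE and RosaYFP, and the offspring used were 6 to 10 weeks old. Cre recombinase was thus driven by Foxl1, which encodes a transcription factor of the forkhead family, and a cell that had used this promoter, with its descendants, carries the yellow fluorescent protein. The hepatocytes and the undifferentiated cells shared the same genotype label, and neither group is labelled as treated. The labels do not say how many animals or cultures the arrays stand for, so the p-values cover the spread among these arrays alone, and that spread may be technical. They do not say whether the undifferentiated cells are 1 line or several, nor for how long they had been grown. The study as a whole compared cells differentiated in culture with primary cells. The present comparison gives the distance between its starting cells and one of its 2 mature cell types. The undifferentiated cells had been grown, whereas the hepatocytes are labelled primary, so culture and cell type cannot be told apart in any difference below.

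Hepatocytes are the main epithelial cells of the liver and make most plasma proteins, the enzymes that handle drugs, ammonia and amino acids, and bile acids. Hepatic progenitors appear near bile ducts in the injured liver, share keratins with duct cells and can divide in culture. The transcription factors of the hepatocyte, among them HNF4A, C/EBP alpha and the FOXA proteins, act together on the promoters of many liver genes.

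Values are log2 signals minus log2 of the array's 75th percentile of signal, called levels here, and a difference is primary hepatocytes minus undifferentiated cells on this log2 scale, so that a difference of 1 is 2-fold. It is given ± its standard error (SE) from a limma model of all 17 arrays, with p-values adjusted over 25977 genes by the method of Benjamini and Hochberg. A gene is called at an adjusted p under 0.05. Levels of different genes come from different probes and were not compared with each other. Where all arrays of 1 group failed the scanner's test of signal well above background, a gene has only a bound, written as at least N-fold, with that group set at the dimmest signal well above background or at its own signal if that was higher.

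The groups lay far apart. Of 25977 genes, 16680 were called (64.2%), 9775 of them higher in primary hepatocytes (37.6%) and 6905 lower (26.6%), and 8275 (31.9%) and 4935 (19%) were also at least 2-fold apart. The groups did not overlap in 15438 genes (59.4%), in 33.8% with hepatocytes higher and in 25.6% with hepatocytes lower. In 1407 genes the called difference was at least 16-fold in favour of hepatocytes, and in 1186 genes it was at least 16-fold in favour of the undifferentiated cells. Lists of genes are read against these shares. The median gene was 0.44 higher in hepatocytes on this scale and lay at 0.0 when each array was scaled to its median, where 7018 genes were higher and 8569 lower (45% of the called genes were higher, against 58.6% before). Of the 16447 genes detected above background on all 8 arrays, 6318 were higher and 5180 lower, with a median of 0.18. The 75th percentile of signal was 2386 ± 190 (SD, n = 4) in undifferentiated cells and 804 ± 189 in hepatocytes, the 100 brightest probes held 11.1% to 12.6% and 18.3% to 22.5% of the signal, and 23816 to 28897 probes per array were well above background. Between 2 hepatocyte arrays the correlation across genes was 0.975 to 0.983, between 2 undifferentiated arrays 0.963 to 0.975, and between the groups 0.747 to 0.814.

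The undifferentiated arrays differed among themselves in hepatocyte transcripts. The mean level of the 48 tested plasma protein genes was -1.22, -1.36, -3.26 and -4.96 on undifferentiated arrays 1 to 4 and 6.8 to 7.0 on the hepatocyte arrays. Across 191 genes of plasma proteins, coagulation, complement, cytochrome P450 and amino acid breakdown, 154, 160, 143 and 111 were above background on the undifferentiated arrays, and 187 to 189 on the hepatocyte arrays. The median SD of plasma protein genes was 1.82 among undifferentiated arrays and 0.31 among hepatocyte arrays, while that of all genes was 0.41 and 0.36. No undifferentiated array reached the hepatocyte arrays in any of these lists. Without undifferentiated arrays 1 and 2, a choice made after seeing the data, 47 of 48 plasma protein genes were again called higher, with a median difference of 11.66 in place of 10.34. Whether fewer hepatocyte-like cells or less of each RNA per cell lies behind a low level cannot be told apart in bulk samples.

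**Figure D1:**
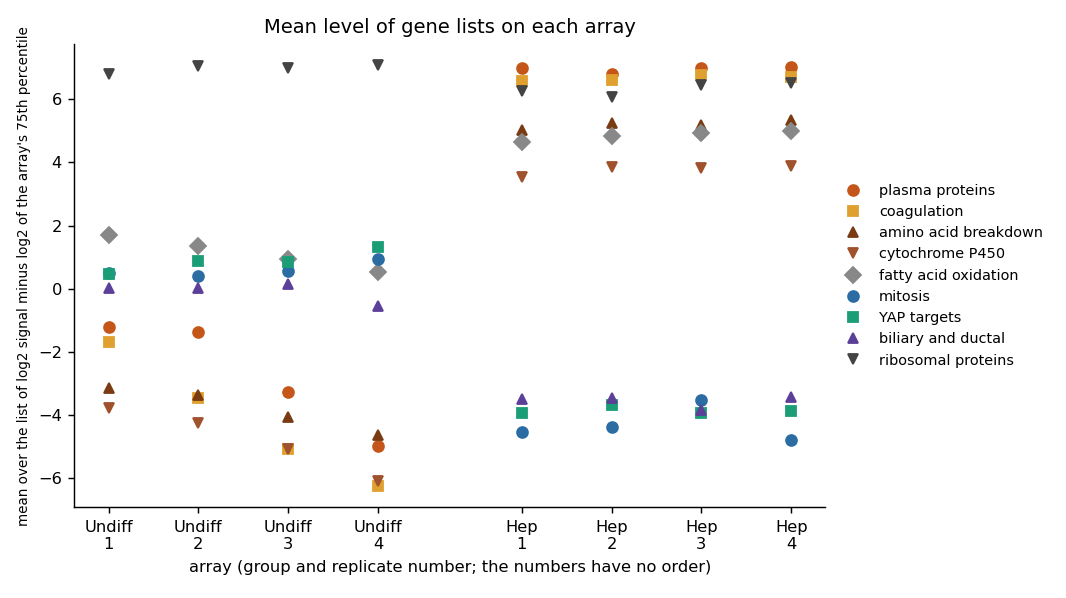
Mean level (log2 signal minus log2 of the 75th percentile of the array) of 9 gene lists on each of the 4 undifferentiated and the 4 hepatocyte arrays, 1 point per list and array. Plasma protein genes spread from -4.96 to -1.22 among undifferentiated arrays and lie between 6.8 and 7.0 in hepatocytes, while ribosomal protein genes lie close together on all arrays.

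Genes chosen for each side are given first. They were chosen with earlier results of these data known, so their calls do not test the labels. All 10 hepatocyte identity genes chosen were called higher in primary hepatocytes, against 37.6% of all genes tested. Cyp2e1, the ethanol-oxidising cytochrome P450, had levels of -5.06, -4.87, -5.08 and -6.41 in undifferentiated cells and 9.18, 9.22, 9.66 and 9.61 in primary hepatocytes. The groups lay far from each other, with a difference of 14.78 ± 1.16 (adjusted p = 7.25e-08). Slc27a5, a liver enzyme that activates bile acids and fatty acids, was at -3.81, -4.7, -5.5 and -6.48 in undifferentiated cells and 8.1, 8.04, 8.1 and 8.42 in primary hepatocytes, a difference of 13.29 ± 1.64 (adjusted p = 6.98e-06). Asgr1, the receptor that clears desialylated glycoproteins, was at -4.84, -4.34, -5.58 and -5.94 in undifferentiated cells and 6.54, 6.84, 6.66 and 6.53 in primary hepatocytes, with a difference of 11.82 ± 1.39. Cps1, the entry enzyme of the urea cycle, differed by 11.63 ± 1.71, and Apoa1, the main protein of high-density lipoprotein, by 9.85 ± 2.4.

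Serum albumin and the liver nuclear receptor Hnf4a behaved differently from these. Alb was at 6.0, 1.26, -4.44 and -8.74 in undifferentiated cells and 9.75, 9.46, 10.03 and 10.31 in primary hepatocytes. All hepatocyte arrays were above all undifferentiated arrays, with undifferentiated array 1 the nearest to them, and array 4 was not above background. The difference of 11.37 ± 3.24 had an adjusted p of 0.00706, and without undifferentiated arrays 1 and 2 it was 16.48. Ttr, the thyroid hormone carrier, showed the same spread, at 4.99, 3.23, 1.85 and -4.38 in undifferentiated cells and 8.82, 8.95, 9.09 and 9.34 in primary hepatocytes, with a difference of 7.63 ± 1.67. Hnf4a was already high in undifferentiated cells, at 5.6, 5.44, 5.43 and 4.83, and reached 6.96, 6.76, 7.3 and 7.2 in hepatocytes, a difference of 1.73 ± 0.45 (adjusted p = 0.00388). For Slc10a1, the bile acid importer, 2 probes disagreed. The brighter probe, which stands for the gene, was at 7.19, 7.35, 7.51 and 7.52 in undifferentiated cells and 8.53, 8.19, 8.67 and 8.48 in primary hepatocytes, a difference of 1.08 ± 0.15 that was 0.041 and not called with quantile normalization (adjusted p = 0.834). The other was not above background in undifferentiated cells and had a mean of 4.39 in hepatocytes, at least 3508-fold higher.

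Ankrd1, Scd2 and Foxl1, the genes looked at for the undifferentiated side, gave the opposite picture. Of these only Foxl1 belongs to the list of progenitor and fetal liver genes given below. That list was mixed, with 14 of 31 genes lower in hepatocytes and 6 higher. Ankrd1, a nuclear ankyrin repeat protein and target of the growth regulator YAP, was at 4.43, 4.99, 5.57 and 5.79 in undifferentiated cells and -6.95, -7.68, -8.45 and -5.41 in primary hepatocytes, and only 1 of the 4 hepatocyte arrays was above background. The difference was -12.32 ± 0.62 (adjusted p = 7.89e-10). Scd2, a fatty acid desaturase of tissues other than adult liver, was at 6.78, 6.35, 6.37 and 5.36 in undifferentiated cells and -4.29, -2.47, -4.28 and -3.38 in primary hepatocytes, a difference of -9.82 ± 0.41 (adjusted p = 1.04e-10). Foxl1 itself, the gene whose promoter drives Cre, was at -1.55, 1.05, 2.23 and 2.55 in undifferentiated cells. It was above background on all 4 of these arrays, lowest on array 1, and on no hepatocyte array, and it was at least 141-fold lower in hepatocytes (adjusted p = 3.11e-05).

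**Figure D2:**
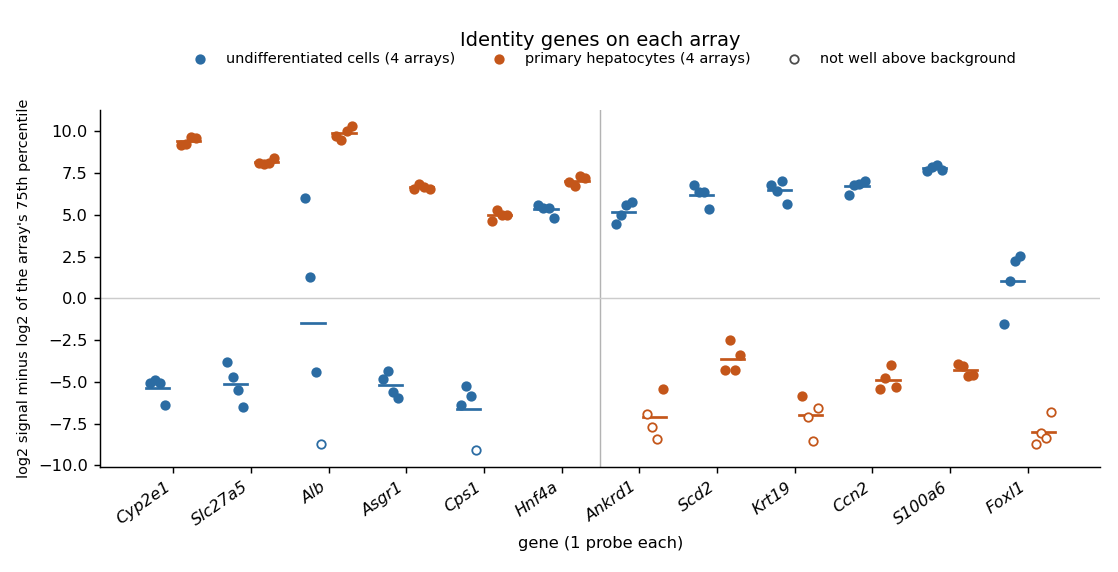
Levels (log2 signal minus log2 of the 75th percentile of the array) of 12 genes on the 4 undifferentiated and 4 hepatocyte arrays. Each point is an array, each bar a group mean, and open points were not well above background. The groups do not overlap in any of the 12 genes, Alb spreads from -8.74 to 6.0 in undifferentiated cells, and Hnf4a lies between 4.83 and 5.6 there.

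Beyond these genes, the largest differences in favour of hepatocytes among genes detected on all 8 arrays included Mup2 (14.55 ± 0.35), a major urinary protein, Serpinc1 (14.11 ± 1.83), the thrombin inhibitor antithrombin, and Mup21 (13.86 ± 0.45). They also included Itih4 (13 ± 1.21), a plasma matrix-stabilising protein, Rgn (12.93 ± 0.61), a calcium-binding lactonase, Cyp2a4 (12.86 ± 1.01), a steroid hydroxylase, and Inmt (12.69 ± 0.52), a methyltransferase. Pzp, a broad protease inhibitor of plasma, followed at 12.65 ± 0.84, then the pseudogene Cyp2a21-ps at 12.64 ± 0.93 and the plasma protein Hrg at 12.42 ± 0.91. Proz (12.3 ± 1.7), a vitamin K-dependent plasma protein, and Pygl (12.29 ± 1.1), the liver glycogen phosphorylase, closed the 15 largest. Pax2, a developmental transcription factor, was also among these by 1 probe (12.39 ± 0.42), whose levels were -5.92, -4.88, -5.32 and -6.89 in undifferentiated cells and 7.36, 5.97, 6.38 and 6.84 in primary hepatocytes. Its other kept probe was not above background on any hepatocyte array, so the change of Pax2 is uncertain. The probes of the Mup and Cyp2a genes cannot be told with certainty from their near-identical paralogs.

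Further genes were above background on no undifferentiated array. Mup3 was at -9.0, -9.76, -9.65 and -9.42 in undifferentiated cells and 8.93, 8.61, 9.24 and 9.43 in primary hepatocytes, at least 94686-fold higher in hepatocytes. The carboxylesterase Ces3a was at least 72992-fold higher, the protease inhibitors Mug1 and Mug2 at least 70103-fold and 54025-fold, the carbonic anhydrase Car3 at least 58481-fold and the P450 Cyp2f2 at least 52301-fold. Mup-ps3, listed as a pseudogene, was at least 117940-fold higher, and Mup-ps12, listed as protein coding, at least 88539-fold (781-fold by its other probe). Both carry the name of the Mup family. By the probe that stands for each gene, 392 genes were above background on every hepatocyte array and on no undifferentiated array, and 890 showed the reverse.

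**Figure D3:**
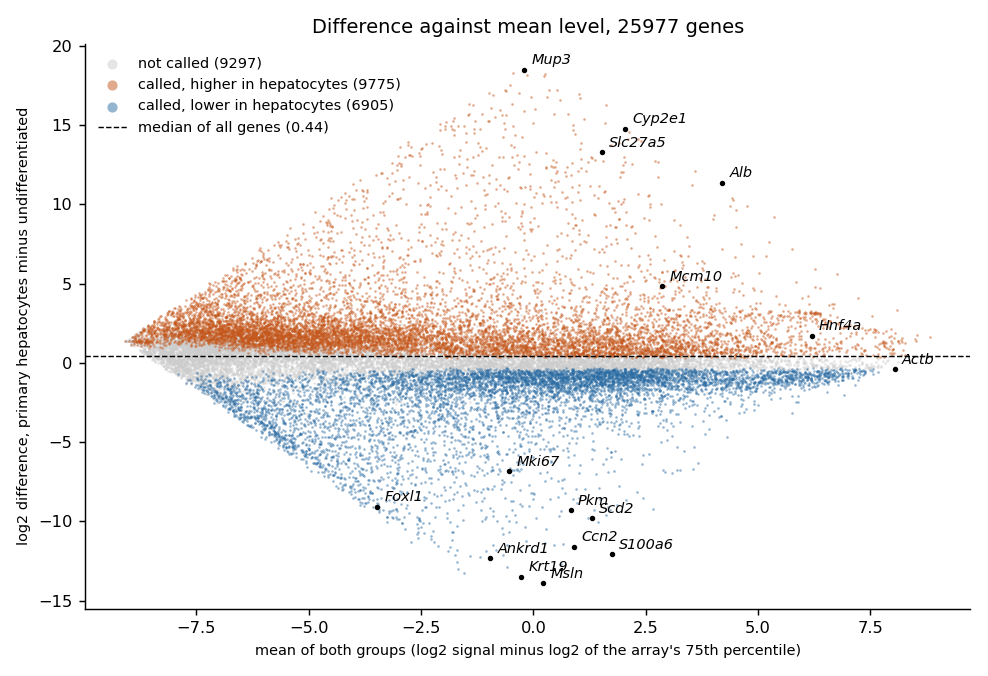
Difference (log2, primary hepatocytes minus undifferentiated cells) of each of 25977 genes against its mean level over both groups, in orange where called higher in hepatocytes (9775 genes), in blue where called lower (6905) and in grey where not called. The dashed line is the median of all genes at 0.44, genes named in the text are marked, and dim genes at the left lean above 0.

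Secreted liver proteins were higher in hepatocytes almost without exception, as the plot of calls within gene lists shows. Of 48 plasma protein genes 47 were called higher and none lower, with a median difference of 10.34. All 24 coagulation and fibrinolysis genes (median 11.09) and all 20 complement genes (median 10.12) were called higher. Within the 3 slides that held an array of each group, the plasma protein median was 8.55, 12.98 and 9.05, the coagulation median 10.55, 13.39 and 7.74, and the complement median 9.01, 11.22 and 8.78. In the share called higher these lists lay at 97.9%, 100% and 100%, against 37.6% of all genes.

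Among the carriers and lipoproteins, Serpina6, the corticosteroid carrier, was at least 9577-fold higher by its brighter probe and 11.47 higher on the log2 scale by the other, which was above background on 1 undifferentiated array. Hamp, the iron hormone hepcidin, differed by 15.12 ± 1.28. Some of these genes were well expressed in undifferentiated cells too. Trf, the iron carrier transferrin, was at 7.1, 7.22, 5.69 and 5.69 in undifferentiated cells and 9.52, 9.44, 9.96 and 10.16 in primary hepatocytes, a difference of 3.35 ± 0.46. Apob, the scaffold of very low-density lipoprotein, was at 4.17, 4.4, 3.85 and 3.67 in undifferentiated cells and 6.93, 6.58, 7.39 and 6.92 in primary hepatocytes, a difference of 2.93 ± 0.34. A1bg, a plasma glycoprotein, was the only tested plasma protein gene that was not called, and it was above background on no array of either group (1.85 ± 0.86, adjusted p = 0.075). The 2 probes of Cp, the copper protein ceruloplasmin, were called in opposite directions, at 2.03 and -5.12. In coagulation, Plg, the zymogen of the clot-dissolving enzyme plasmin, was above background on no undifferentiated array and at 7.46, 7.54, 7.64 and 7.44 in hepatocytes, at least 32787-fold higher. Fgb, a fibrinogen chain, ran like Alb, at 4.24, 1.81, -0.83 and -4.35 in undifferentiated cells and 8.89, 8.61, 8.99 and 8.62 in primary hepatocytes, a difference of 8.56 ± 1.37. The fibrinogen chains Fga (7.06 ± 0.72) and Fgg (12.72 ± 1.6) and the clotting factor F9 (5.26 ± 0.8) were higher as well. F10, a clotting factor, differed by 1.39 ± 0.15 on the probe that stands for it, which turned to -0.123 with quantile normalization (not called), and by 13.89 on its other probe. In complement, C8b, a subunit of the membrane attack complex, was at least 10247-fold higher, and C3, the central component, was at 5.78, 3.05, 3.46 and 3.54 in undifferentiated cells and 9.49, 9.25, 9.73 and 9.8 in primary hepatocytes, a difference of 5.61 ± 0.69.

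The promoters of genes of these lists are shown because a motif of liver factors was frequent in them. The motif of C/EBP factors, searched as TTGCNNAA, was found in 31.6% of the 38 plasma protein promoters and 33.3% of the 21 coagulation promoters for which RefSeq gave a sequence (build GRCm38.p6), against 8.44% of 14821 promoters of tested genes and 9.56% of all 27018 promoters of the table. The window was the 250 bases before the annotated start, and both strands were searched. The motif of AP-1 factors, searched as TGANTCA, was more frequent in these lists too, at 18.4% and 14.3%, against 5.63% of promoters of tested genes. CCAAT was found in 36.8% and 19%, against 35.8%. The promoters of both lists were poorer in G and C (medians 49.8% and 48%, against 57.2%). These shares are descriptions, with no test. The windows of Alb (chr5:90460620-90460869, plus strand) and Fga (chr3:83025903-83026152, plus strand) are printed 5′ to 3′ with the matches of this motif in capitals, and in Alb those of the CCAAT box, searched as CCAAT, too. No marked matches overlap.
Alb: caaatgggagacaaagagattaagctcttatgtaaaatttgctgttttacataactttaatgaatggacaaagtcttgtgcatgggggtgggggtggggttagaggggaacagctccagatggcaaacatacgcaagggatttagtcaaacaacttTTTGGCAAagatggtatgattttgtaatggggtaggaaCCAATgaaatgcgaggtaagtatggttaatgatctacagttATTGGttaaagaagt
Fga: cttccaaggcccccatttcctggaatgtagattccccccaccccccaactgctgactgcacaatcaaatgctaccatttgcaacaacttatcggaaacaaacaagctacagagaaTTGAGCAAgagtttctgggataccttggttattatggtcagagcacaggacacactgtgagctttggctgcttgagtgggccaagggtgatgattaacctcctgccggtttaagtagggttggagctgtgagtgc

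Enzymes of detoxification and nitrogen metabolism were higher in hepatocytes. Of 53 cytochrome P450 genes 47 were called higher and 3 lower (median 10.54), of 55 conjugation enzymes 49 and 1 (median 5.68), of 46 genes of amino acid breakdown 45 and 0 (median 10.14) and of 17 genes of the urea cycle and ammonia handling 13 and 1 (median 6.31). Over the genes detected on all 8 arrays, the medians of the last lists were 5.22 and 3.17. The medians within slides were 9.65, 11.95 and 8.8 for P450 genes and 9.23, 11.47 and 8.66 for amino acid breakdown. Cyp3a11, a P450 that oxidises many drugs, was at -5.14, -5.54, -5.36 and -6.09 in undifferentiated cells and 5.93, 6.63, 7.06 and 6.7 in primary hepatocytes, a difference of 12.12 ± 1.38 (adjusted p = 3.22e-06). Cyp2c50 and Cyp2a12, further P450 enzymes of the liver, were at least 36870-fold and 24758-fold higher, and Cyp1a2, which oxidises caffeine, differed by 11.86 ± 0.95. The 3 P450 genes that were lower were Cyp1b1, an enzyme of tissues other than liver, at 0.86, 0.48, 2.26 and 2.43 in undifferentiated cells and at least 192-fold lower in hepatocytes, Cyp2s1 (-9.07 ± 0.94) and Cyp4f16 (-2.62 ± 0.24). Cyp1a1, an enzyme induced by aromatic hydrocarbons, was not called (0.6 ± 1.53, adjusted p = 0.744). Among conjugation enzymes, the carboxylesterase Ces1d, listed with them, was at least 14976-fold higher, the glucuronosyltransferase Ugt2a3 differed by 13.13 ± 0.68, and Gsto1, a glutathione transferase, was lower (-1.62 ± 0.25). Members of the Cyp2c, Cyp2d, Cyp3a, Ugt2b and Ces1 families may share probes.

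In nitrogen metabolism, Otc, the second enzyme of the urea cycle, was at -5.86, -9.7, -9.36 and -9.31 in undifferentiated cells and 5.8, 5.82, 6.01 and 6.07 in primary hepatocytes. It was above background on undifferentiated array 1 only, and the difference was 14.48 ± 1.53. Nags, which makes the activator of that cycle, differed by 9.94 ± 0.9 and Ass1, its argininosuccinate synthase, by 7.48 ± 1.07. Hpd, an enzyme of tyrosine breakdown, was at least 24039-fold higher, and Bhmt, which remethylates homocysteine, differed by 17.21 ± 1.74. Gldc, of glycine cleavage, was the only gene of the amino acid list that was not called (1.06 ± 0.74, adjusted p = 0.219). Glul, the glutamine synthetase of hepatocytes around the central vein, was not called either (0.82 ± 0.39, adjusted p = 0.077).

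The P450 promoters are shown for a second liver motif. The HNF4 motif, searched on both strands as CAAAGTCCA, was found in 12.2% of 41 P450 promoters, against 0.412% of the promoters of tested genes and 0.381% of all promoters, and in none of the plasma protein promoters. TATAAA, the sequence of a TATA box, was found in 46.3% of P450 promoters, against 9.77% and 13%. It was counted at any position of the window, so a match need not be a TATA box. P450 promoters were poorer in G and C (median 48.8%, against 57.2% in tested genes), and TTTGAA, which is also rich in A and T, was found in 36.6% of them, against 12.7%. In the window of Cyp3a11 (chr5:145879855-145880104, minus strand) the matches of CAAAGTCCA and TATAAA are in capitals.
Cyp3a11: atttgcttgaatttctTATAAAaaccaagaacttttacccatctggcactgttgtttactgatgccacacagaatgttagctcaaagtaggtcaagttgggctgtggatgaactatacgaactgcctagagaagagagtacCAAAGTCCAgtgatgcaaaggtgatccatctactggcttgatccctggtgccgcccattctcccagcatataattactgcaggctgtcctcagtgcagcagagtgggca

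Glucose metabolism differed by a change of isozyme. Of 22 genes of gluconeogenesis and glycogen 21 were called higher and 1 lower (median 6.91, and 6.54, 7.2 and 5.11 within slides, or 4.39 over the genes detected on all 8 arrays), whereas of 24 genes of glycolysis and glucose uptake outside the liver 4 were called higher and 14 lower (median -0.97). Pck1, the first committed enzyme of gluconeogenesis, was at -7.55, -6.87, -8.14 and -9.55 in undifferentiated cells and 6.61, 6.33, 7.29 and 6.76 in primary hepatocytes, a difference of 14.78 ± 1.91 (adjusted p = 1.14e-05). Its mitochondrial relative Pck2 was the 1 gene of the list that was lower (-2.54 ± 0.32). Fbp1, the fructose bisphosphatase of gluconeogenesis, differed by 15.73 ± 1.76 and G6pc, which releases free glucose, by 9.56 ± 1.07. Gys2, the liver glycogen synthase, was above background on no undifferentiated array and at least 9019-fold higher.

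Of 14 pairs of a liver form and another form of the same enzyme or protein, 11 had the liver form higher and the other form lower. Pkm, the pyruvate kinase of growing cells, was at 5.57, 5.64, 5.26 and 5.47 in undifferentiated cells and -4.04, -3.61, -3.54 and -4.11 in primary hepatocytes, a difference of -9.31 ± 0.21 (adjusted p = 2.72e-13), while Pklr, the liver form, differed by 1.95 ± 0.44. Scd1 was higher (4.3 ± 0.51) where Scd2 was lower. Mat1a, the methionine adenosyltransferase of mature liver, was at least 9885-fold higher, and Mat2a, the form of other cells, was lower (-0.91 ± 0.14). The gap junction proteins split in the same way: Gjb1 was at 0.47, -1.56, -1.57 and -2.87 in undifferentiated cells and 7.38, 7.8, 7.67 and 7.76 in primary hepatocytes, a difference of 9.04 ± 0.9, and Gja1 was at least 32.8-fold lower. In the remaining pairs, Pfkl (-0.18 ± 0.27), Arg2 (-1.67 ± 0.82) and Acaca (0.5 ± 0.3) were not called. Both other probes of Acaca were called higher (0.85 and 1.46, adjusted p = 0.0309 and 4.04e-05).

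**Figure D4:**
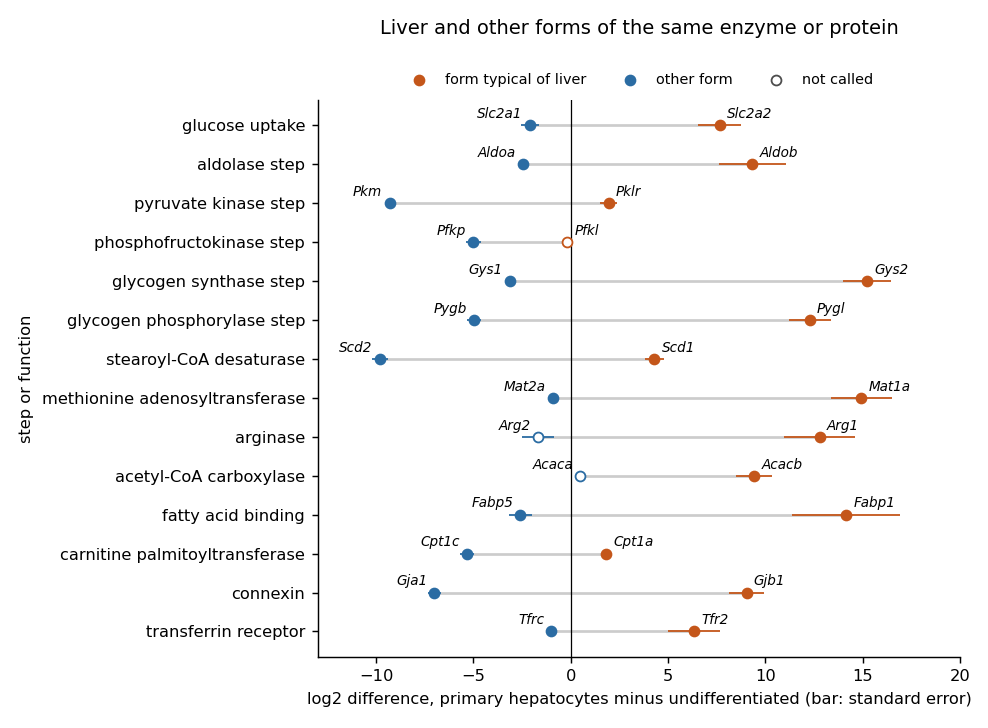
Difference (log2, primary hepatocytes minus undifferentiated cells) of the liver form (orange) and the other form (blue) of 14 enzymes or proteins, with the standard error as a bar and open points where a gene was not called. In 11 pairs the liver form lies above 0 and the other form below, for example Scd1 at 4.3 and Scd2 at -9.82.

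Genes of lipid use were higher too, by smaller amounts. Of 38 genes of fatty acid oxidation and ketone synthesis 37 were called higher and none lower (median 2.79, and 2.78, 3.27 and 2.51 within slides), and of 27 peroxisomal genes 26 and none (median 3.4). Ppara, the receptor that controls fatty acid oxidation, was at -2.41, -0.45, -3.28 and -2.22 in undifferentiated cells and 5.33, 5.29, 5.33 and 5.32 in primary hepatocytes. The 4 hepatocyte arrays were nearly equal, and the difference was 7.41 ± 0.56 (adjusted p = 4.94e-08). Acadm, a medium-chain acyl-CoA dehydrogenase, differed by 2.81 ± 0.2 and Cpt1a, the gate of mitochondrial import, by 1.83 ± 0.27. Fabp1, the liver fatty acid binding protein, differed by 14.16 ± 2.78, with undifferentiated values from -9.26 to 0.86. Ppargc1a, a coactivator of these genes, was not called (0.32 ± 0.57, adjusted p = 0.637). Of 50 genes of the respiratory chain 47 were called higher, with a median of only 1.05, for example Sdhb at 1.72 ± 0.27. With each array scaled to its median, 29 of them were called, with a median of 0.61.

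In fatty acid synthesis 17 of 26 genes were called higher and 4 lower (median 1.93), and in cholesterol synthesis 19 of 25 higher and 1 lower (median 1.49). Thrsp, a regulator of lipogenesis, was at 5.27, 7.23, 5.74 and 6.51 in hepatocytes and above background on 1 undifferentiated array, a difference of 14.74 ± 1.49. Fasn, the fatty acid synthase, was at -0.55, -1.65, -2.16 and -1.65 in undifferentiated cells and 0.03, 2.73, -0.44 and 0.65 in primary hepatocytes, with hepatocyte array 2 apart from the others, and differed by 2.24 ± 0.61 (adjusted p = 0.00501). Elovl7, a fatty acid elongase, was lower (-9.7 ± 0.69), as was Fads3 (-7.96 ± 0.24), a desaturase relative. In sterol synthesis, Acat2, a cytosolic thiolase, differed by 7.01 ± 0.62 and Sc5d, a sterol desaturase, by 3.27 ± 0.31. Sqle, the squalene epoxidase, overlapped between the groups and was not called (0.68 ± 0.35, adjusted p = 0.104). Srebf2, the transcription factor of this pathway, was lower (-1.23 ± 0.22).

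Bile acid synthesis and transport genes were higher in 33 of 36 cases and lower in 1 (median 4.99, and 4.43, 7.84 and 4.0 within slides, or 2.55 over the genes detected on all 8 arrays). Cyp7a1, the rate-limiting enzyme of bile acid synthesis, was above background on no undifferentiated array and at 2.04, 3.17, 1.14 and 4.27 in hepatocytes, at least 1125-fold higher (adjusted p = 4.17e-09). Cyp8b1, the 12-alpha-hydroxylase of the same pathway, was at 2.74, 3.64, 2.22 and 4.22 and at least 1647-fold higher. In both genes hepatocyte arrays 2 and 4 were above arrays 1 and 3. Abcb11, the bile salt export pump, was at least 7665-fold higher, and Slco1b2, an organic anion importer, differed by 15.9 ± 1.13. Abcc4, an exporter on the blood side of the cell, was the 1 gene that was lower, at 3.68, 3.95, 4.71 and 4.76 in undifferentiated cells and -4.14, -3.65, -4.18 and -5.25 in primary hepatocytes, a difference of -8.58 ± 0.34.

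Liver transcription factors were higher in 17 of 25 cases and lower in 3 (median 2.13). Nr5a2, a nuclear receptor of bile acid and cholesterol genes, was at -2.91, -5.31, -6.71 and -8.58 in undifferentiated cells and 3.09, 2.53, 3.23 and 2.91 in primary hepatocytes, a difference of 8.82 ± 0.99. Cebpa, a factor of mature hepatocytes, was at -0.74, -1.8, -1.8 and -2.55 in undifferentiated cells and 3.61, 4.47, 4.26 and 4.08 in primary hepatocytes, a difference of 5.83 ± 0.5 (adjusted p = 2.05e-07). Creb3l3 (8.59 ± 0.94), a membrane-bound factor of lipid genes, and Tbx3 (8.46 ± 2.33), a T-box factor, were among the largest, and Tbx3 was above background on only 2 undifferentiated arrays. Onecut1 (5.68 ± 0.79), Foxa3 (5.02 ± 0.93), Prox1 (4.2 ± 0.63), Nfia (3.0 ± 0.3), Atf5 (2.73 ± 0.49), Gata4 (2.36 ± 0.66), Zbtb20 (2.13 ± 0.22), Nfib (1.17 ± 0.25) and Cebpb (0.78 ± 0.17) were also higher. Esrrg, an orphan receptor, was at least 12.2-fold higher, and Lifr, a cytokine receptor placed in this list, differed by 5.06 ± 0.44 (9.34 and 3.44 by its other probes). The pioneer factor Foxa2 was at 3.98, 3.36, 3.95 and 3.53 in undifferentiated cells and 2.91, 2.7, 3.16 and 3.42 in primary hepatocytes, overlapped between the groups and was slightly lower (-0.66 ± 0.2, adjusted p = 0.0118). Another probe of Foxa2 was not called (-0.59, adjusted p = 0.0636). Gata6, a zinc finger factor, was lower as well (-2.79 ± 0.27). Foxa1 (0.55 ± 0.37), Cebpd (-0.33 ± 0.32), Zhx2 (-0.34 ± 0.54), Bcl6 (0.75 ± 0.62) and Onecut2 (0.67 ± 0.57) were not called. With each array scaled to its median, Nfib (0.728) and Cebpb (0.331) were no longer called, and without undifferentiated arrays 1 and 2 Tbx3 was not (7.19, adjusted p = 0.0523).

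Nuclear receptors of metabolism were higher in 18 of 28 cases and lower in 4 (median 2.12). Nr1i2, the drug sensor PXR, was at -4.16, -2.09, -8.94 and -8.86 in undifferentiated cells and 1.3, 2.04, 1.65 and 1.49 in primary hepatocytes, a difference of 7.63 ± 1.51. Nr0b2 (7.23 ± 0.44), the bile acid-induced repressor, Nr1i3 (5.34 ± 0.37), the drug sensor CAR, Nr1h3 (5.16 ± 0.57), an oxysterol receptor, Esr1 (6.23 ± 0.9), an oestrogen receptor, and Rora (4.89 ± 0.32) were higher. So were Thrb (3.8 ± 0.61), Rxra (2.49 ± 0.26), Nr1h4 (2.18 ± 0.66), the bile acid receptor, Nr2f2 (2.06 ± 0.21), Nr3c1 (1.7 ± 0.22), the glucocorticoid receptor, Nr2f6 (0.86 ± 0.14) and Rxrb (0.67 ± 0.2). Nr2f1 (-4.45 ± 0.41), Rarg (-3.8 ± 0.29), Nr4a2 (-2.58 ± 0.32) and Ppard (-1.74 ± 0.34) were lower. Nr4a1 (-0.87 ± 0.77), Thra (-0.29 ± 0.2), Pparg (-0.16 ± 0.45), Rarb (0.1 ± 0.23), Nr1h2 (0.35 ± 0.15) and Rxrg (0.55 ± 0.46) were not called. The other probe of Rxrg, above background on 3 undifferentiated and all hepatocyte arrays, differed by 8.2 (adjusted p = 1.92e-09), and the other probe of Nr1i3, above background on no undifferentiated array, was at least 1370-fold higher. Another probe of Esr1 was not called (2.19, adjusted p = 0.0698). A further probe of Esr1, above background on no undifferentiated array, was at least 2.24-fold higher. With each array scaled to its median the calls of Nr2f6 (0.409) and Rxrb (0.223) ended.

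Clock genes and the PAR bZIP factors they drive were higher in 12 of 18 cases and lower in 1 (median 2.48). Hlf, a PAR bZIP factor, was at -6.48, -6.59, -6.73 and -7.61 in undifferentiated cells and 1.76, 1.67, 1.67 and 1.85 in primary hepatocytes, a difference of 8.59 ± 0.32 (adjusted p = 4.01e-11). Dbp, its relative and a direct clock output, was at -0.18, -0.7, -0.84 and -0.43 in undifferentiated cells and 5.35, 5.86, 5.5 and 6.22 in primary hepatocytes, a difference of 6.27 ± 0.36. Nr1d1 (4.41 ± 0.31), a clock repressor, Nr1d2 (2.67 ± 0.22), Ciart (4.72 ± 0.34), Per2 (2.9 ± 0.33), Per3 (3.66 ± 0.3), Cry2 (2.29 ± 0.2), Tef (2.73 ± 0.17) and Bhlhe40 (1.5 ± 0.36) were higher. The activator Arntl was the 1 gene that was lower, at -1.18, -1.63, -0.76 and -1.06 in undifferentiated cells and -2.15, -2.92, -2.88 and -3.75 in primary hepatocytes, a difference of -1.77 ± 0.28. Clock (0.1 ± 0.25), Per1 (0.01 ± 0.31), Cry1 (-0.48 ± 0.24), Nfil3 (0.39 ± 0.28) and Bhlhe41 (0.85 ± 0.5) were not called. The time of day at which cells were taken is not given in the labels used here.

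Genes of both liver zones and the sex-biased genes followed the same direction. Of 25 genes of the portal zone 21 were called higher and 2 lower (median 9.57, or 5.22 over the genes detected on all 8 arrays), and of 24 genes of the central zone 18 and 2 (median 5.36, or 2.28). Among central genes Lgr5, a Wnt co-receptor also used as a marker of liver progenitors, was at -5.71, -6.96, -5.39 and -7.42 in undifferentiated cells and -1.0, -1.09, -0.47 and -1.35 in primary hepatocytes and thus higher in hepatocytes by 5.39 ± 0.62 (adjusted p = 3.44e-06). Axin2 (1.59 ± 0.72), a Wnt feedback gene, was not called. Its other probe, above background on 1 undifferentiated array, was called higher (2.58, adjusted p = 6.7e-05). Of 22 major urinary protein and sex-biased genes 20 were called higher and none lower, with a median of 12.64, or 11.81 with genes below background at their bounds. Elovl3, a male-biased elongase, was above background on no undifferentiated array and at least 1569-fold higher. In the growth hormone and IGF axis 13 of 26 genes were called higher and 9 lower: Igfbp2 (11.19 ± 0.66), Igfals (9.42 ± 0.79) and the growth hormone receptor Ghr (4.12 ± 0.65) were higher. Igf1r, the IGF receptor, was lower (-8.4 ± 0.58), and Igf2bp1, a fetal RNA-binding protein, was at 1.45, 1.56, 1.55 and 1.29 in undifferentiated cells and at least 186-fold lower.

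**Figure D5:**
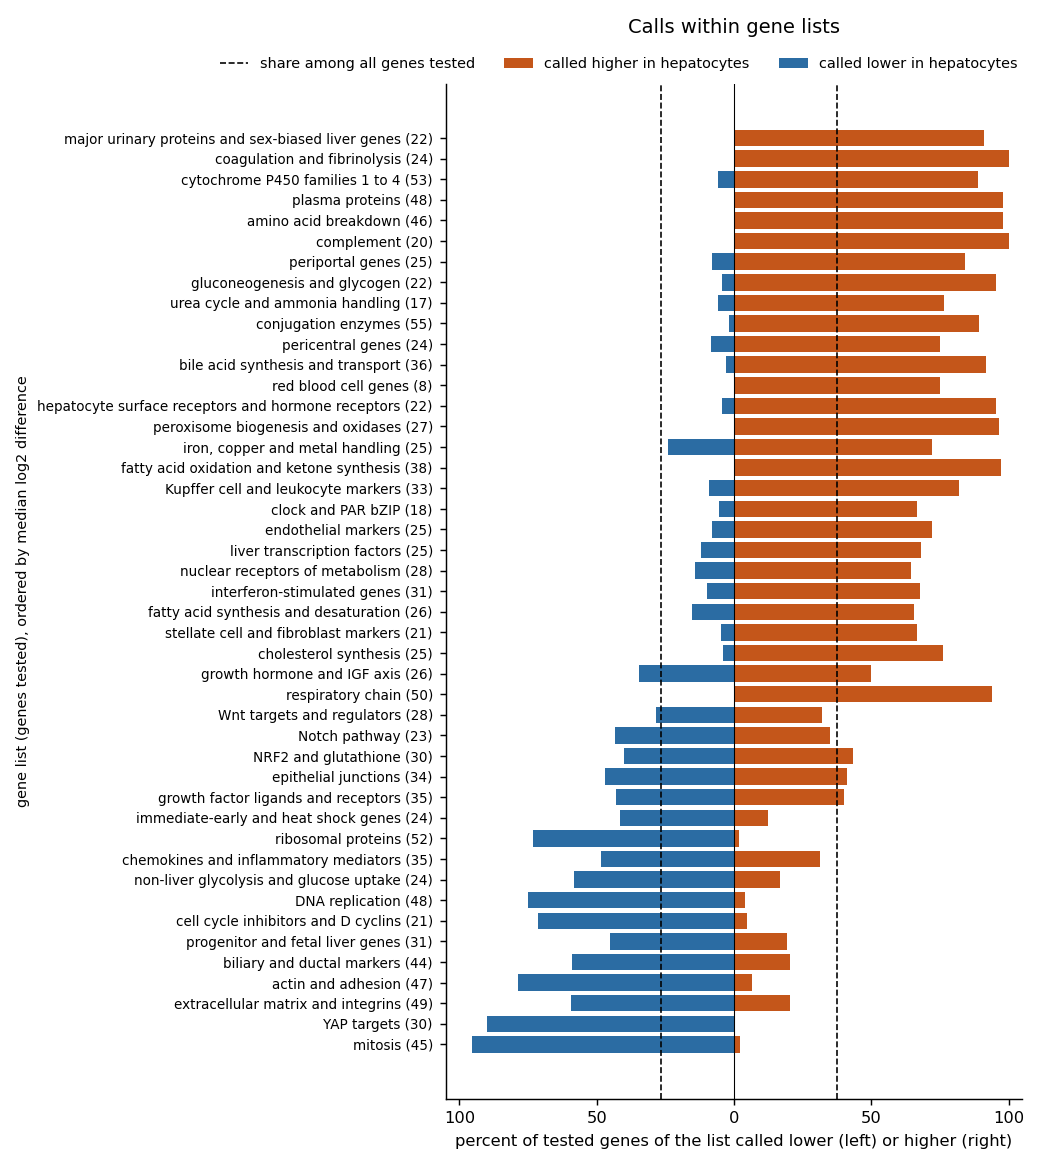
Percent of the tested genes of 45 lists called higher (orange, right) or lower (blue, left) in primary hepatocytes, ordered by median difference, with the number of tested genes in parentheses. The dashed lines are the shares among all genes tested, 37.6% higher and 26.6% lower. Coagulation and complement genes reach 100% on the right, and mitosis genes 95.6% on the left.

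On the side of the undifferentiated cells, the 15 largest differences among genes detected on all 8 arrays began with S100a6. S100a6, a calcium-binding protein of dividing cells, was at 7.61, 7.85, 8.0 and 7.68 in undifferentiated cells and -3.92, -4.04, -4.66 and -4.59 in primary hepatocytes, a difference of -12.09 ± 0.18 (adjusted p = 4.41e-15). Ccn2, a matrix protein and YAP target also known as connective tissue growth factor, was at 6.17, 6.81, 6.85 and 7.01 in undifferentiated cells and -5.45, -4.79, -4.01 and -5.3 in primary hepatocytes, a difference of -11.6 ± 0.49. Vim, the intermediate filament of mesenchymal and cultured cells, was at 6.07, 6.26, 6.21 and 5.88 in undifferentiated cells and -4.58, -2.96, -3.47 and -3.72 in primary hepatocytes, a difference of -9.79 ± 0.76. The list of 15 was completed by Cpe (-11.48 ± 0.3), a carboxypeptidase, Fbln2 (-10.47 ± 0.6), a matrix protein, Anxa1 (-10.03 ± 0.37), an annexin, S100a11 (-9.77 ± 0.2), Sprr1a (-9.69 ± 0.85), a cornified envelope protein, Timp2 (-9.59 ± 0.41), a metalloproteinase inhibitor, Phlda3 (-9.34 ± 0.26), Tnfrsf23 (-9.31 ± 0.42), Lgals3 (-9.31 ± 0.27), a galectin, and Tuba1a (-9.28 ± 0.72), a tubulin, besides Scd2 and Pkm.

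Of the genes above background on no hepatocyte array, Msln, the surface protein mesothelin, was at 6.88, 7.07, 7.36 and 7.32 in undifferentiated cells and -8.41, -6.04, -6.69 and -5.81 in primary hepatocytes and at least 9636-fold lower in hepatocytes. Emp1, a membrane protein, Cd24a, a surface marker of progenitors, Lgals2, a galectin, and Tspan8, a tetraspanin, were at least 2793-fold, 2281-fold, 2050-fold and 1918-fold lower. For Tubb2b, a tubulin, the brighter probe was above background on no hepatocyte array (at least 1613-fold lower), whereas the other was above background on all 8 arrays and differed by -4.03.

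As lists, actin and adhesion genes were lower in 37 of 47 cases and higher in 3 (median -2.6, and -2.52, -3.08 and -2.14 within slides), and matrix and integrin genes were lower in 29 of 49 and higher in 10 (median -2.89). Anxa3 (-11.53 ± 0.26) and Flna (-8.15 ± 0.3), an actin crosslinker, were among the lower genes, whereas Actb differed by only -0.41 ± 0.13. The difference of Actb ranged from -1.44 to -0.356 over all settings. Timp1, a metalloproteinase inhibitor, was at least 515-fold lower. The matrix list also held genes of the opposite direction, such as Vtn, the plasma protein vitronectin (14.43 ± 2.08), Sdc2 (3.73 ± 0.35), a heparan sulfate carrier, and Col3a1 (3.03 ± 1.03), a fibrillar collagen whose call ended with quantile normalization (2.17, adjusted p = 0.0964). Epithelial junction genes were split, with 14 of 34 higher (41.2%) and 16 lower (47.1%), against 37.6% and 26.6% of all genes. Their median (-0.22) changed sign with the filter on dim probes. Gjb2 (12.25 ± 1.44) and Cldn1 (6.3 ± 1.17), junction proteins of hepatocytes, were higher, and Cdh1, the epithelial cadherin, was at 3.65, 3.17, 3.95 and 3.14 in undifferentiated cells and 0.97, 0.94, 1.04 and 0.21 in primary hepatocytes, a difference of -2.69 ± 0.26.

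None of the 30 tested YAP targets and pathway genes was called higher, and 27 were called lower (median -3.46, or -3.38 with genes below background at their bounds, and -3.52, -4.39 and -3.24 within slides). With Ankrd1 and Ccn2 stood Ccn1, a further matrix protein of the same family, at 2.17, 3.74, 3.27 and 4.09 in undifferentiated cells and -0.49, 0.1, -0.28 and -0.92 in primary hepatocytes, a difference of -3.72 ± 0.58. Axl, a receptor kinase, differed by -9.6 ± 0.82, Fjx1 by -8.39 ± 0.22 and Tead2, a partner of YAP on DNA, by -7.52 ± 0.43. The growth factors Areg and Tgfb2 were at least 197-fold and 147-fold lower, Arhgef17, Foxf2 and Myof at least 73.5-fold, 39.2-fold and 10.2-fold. Igfbp3 (-6.75 ± 0.78), Gadd45b (-5.58 ± 0.37), Birc5 (-4.93 ± 0.37), Ptpn14 (-3.52 ± 0.28), Tead1 (-3.41 ± 0.25), Amotl1 (-3.26 ± 0.44), Ajuba (-3.25 ± 0.22), Asap1 (-2.82 ± 0.17) and Crim1 (-2.48 ± 0.42) were lower. So were Wwtr1 (-2.4 ± 0.25), which encodes the YAP relative TAZ, Vgll4 (-2.26 ± 0.22), Amotl2 (-2.07 ± 0.39), Nt5e (-2.05 ± 0.77), F3 (-2.0 ± 0.48), Lats2 (-1.35 ± 0.32) and Nuak2 (-1.25 ± 0.36). Vgll3 (-1.03 ± 0.89), Rbms3 (-0.47 ± 1.69) and Dlc1 (-0.1 ± 0.75) were not called. Another probe of Lats2 was not called either (-0.59, adjusted p = 0.141). The call of Nt5e ended when any of several single arrays was left out, for example at -1.62 without hepatocyte array 4 (adjusted p = 0.0982).

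TEAD factors, which carry YAP to DNA, bind the motif GGAATG. Searched on both strands, it was found in 43.5% of 23 YAP list promoters, against 11.4% of the promoters of tested genes and 12.6% of all promoters. It was also found in 28.6% of the 21 coagulation promoters, whose genes were higher in hepatocytes. The windows of Ankrd1 (chr19:36119845-36120094, minus strand) and Ccn1 (chr3:145649986-145650235, minus strand) are printed with the matches in capitals.
Ankrd1: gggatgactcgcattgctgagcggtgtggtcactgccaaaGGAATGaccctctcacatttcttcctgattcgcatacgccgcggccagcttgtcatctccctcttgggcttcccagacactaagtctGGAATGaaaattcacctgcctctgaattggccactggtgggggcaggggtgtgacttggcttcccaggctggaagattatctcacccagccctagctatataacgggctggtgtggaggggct
Ccn1: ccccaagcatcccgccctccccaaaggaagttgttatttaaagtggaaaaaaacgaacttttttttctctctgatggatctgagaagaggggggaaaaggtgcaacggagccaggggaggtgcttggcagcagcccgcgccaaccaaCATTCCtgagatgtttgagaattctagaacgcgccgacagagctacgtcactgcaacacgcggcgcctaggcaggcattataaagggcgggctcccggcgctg

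Biliary and ductal markers were lower in hepatocytes in 26 of 44 cases and higher in 9 (median -2.38, and -2.3, -2.24 and -2.07 within slides, or -1.14 over the genes detected on all 8 arrays). Krt19, the keratin of duct cells and progenitors, was at 6.8, 6.41, 7.03 and 5.66 in undifferentiated cells and -5.84, -7.11, -8.52 and -6.6 in primary hepatocytes, a difference of -13.49 ± 0.5 (adjusted p = 3.8e-11). Of the hepatocyte arrays, Krt19 was above background on array 1 only, and its difference ranged from -14.3 to -9.86 over all settings. Krt7, its duct partner, was at 4.53, 5.17, 4.65 and 4.38 in undifferentiated cells and at least 1731-fold lower. Krt18, which hepatocytes also make, was at 7.6, 7.98, 7.99 and 7.93 in undifferentiated cells and 6.63, 6.27, 6.42 and 6.53 in primary hepatocytes, a difference of only -1.41 ± 0.14. Spp1 (-9.03 ± 0.44), the secreted protein osteopontin, Sox9 (-3.23 ± 0.55), a ductal transcription factor, and Prom1 (-5.95 ± 1.56), a surface marker of stem cells, were lower, Prom1 without a call when undifferentiated arrays 1 and 2 were left out (-3.19, adjusted p = 0.0885). Epcam, a surface marker of duct cells and progenitors, was at -6.5, -6.46, -5.59 and -7.36 in undifferentiated cells and -7.77, -6.36, -6.77 and -6.17 in primary hepatocytes. It was above background on 3 undifferentiated arrays and no hepatocyte array, overlapped between the groups and was not called (-0.29 ± 0.72, adjusted p = 0.735). Aqp1 (6.21 ± 0.86), a water channel, and Cldn3 (5.59 ± 0.75), a tight junction protein, were higher in hepatocytes.

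Primary cholangiocytes, the duct cells of the study (2 arrays), set some of these values in context. They were compared with the same 4 undifferentiated arrays, so that the comparisons share their controls. Krt19 had a mean of 6.98 there, Krt7 of 5.47 and Msln of 7.43, with differences from undifferentiated cells of 0.51 ± 0.62 (adjusted p = 0.633), 0.79 ± 0.4 (0.204) and 0.27 ± 0.59 (0.808). Epcam had a mean of 2.63 in cholangiocytes and was higher than in undifferentiated cells by 9.11 ± 0.88 (adjusted p = 9.27e-06). Vim (-5.53 ± 0.92, adjusted p = 0.000893) and Igf2bp1 (-9.18 ± 0.61, 2.79e-07) were lower in cholangiocytes than in undifferentiated cells. The 2 cholangiocyte arrays lay apart in Vim, at -2.02 and 3.17, so that the difference was -8.13 or -2.94 with 1 of them left out. Hnf4a was lower there as well (-2.65 ± 0.55, 0.00387), but its arrays were at 3.93 and 1.42, and with the lower one left out it was not called (-1.39, adjusted p = 0.0643). A lone array is assumed to vary like those of the other groups. Alb did not differ by the test (-5.81 ± 3.97, adjusted p = 0.36).

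Progenitor and fetal liver genes were lower in 14 of 31 cases and higher in 6 (median -2.2, or -1.94 at the bounds). Hmga2, a chromatin protein of embryonic cells, was at 4.2, 4.39, 3.84 and 4.66 in undifferentiated cells and -4.5, -4.71, -4.19 and -5.77 in primary hepatocytes, a difference of -9.06 ± 0.48. Ncam1 (-9.08 ± 0.47), an adhesion molecule, the imprinted gene Peg3 (-6.78 ± 0.49), the drug exporters Abcb1b (-5.92 ± 0.56) and Abcb1a (-2.2 ± 0.37), and Tnfrsf12a (-4.84 ± 0.24), the receptor of the cytokine TWEAK, were lower. Another probe of Ncam1 was not called (-0.43, adjusted p = 0.666). Cd44 (-4.62 ± 0.32), Nes (-4.02 ± 0.85), Cd9 (-3.64 ± 0.21) and Hmga1 (-2.63 ± 0.36, with another probe in the opposite direction) were lower as well, and Bex1 was at least 298-fold lower. Besides Lgr5, Aldh1a1 (2.86 ± 0.3), Dlk1 (1.53 ± 0.49), Thy1 (1.51 ± 0.61) and Plagl1 (0.83 ± 0.2) were higher in hepatocytes, and Kit was at least 12.4-fold higher. Afp, the fetal albumin, was at 5.43, -0.59, 0.55 and -3.0 in undifferentiated cells and -2.42, -2.53, -2.71 and -2.91 in primary hepatocytes. Undifferentiated array 1, which also had the highest Alb, stood far above the rest, the groups overlapped and the gene was not called (-3.24 ± 1.63, adjusted p = 0.0947). Igf2 (0.97 ± 0.68), H19 (-1.58 ± 2.76), Gpc3 (1.33 ± 0.73, above background on no array), Mest (-0.07 ± 0.56), Cd81 (-0.11 ± 0.18), Sall4 (1.42 ± 0.67), Fst (1.05 ± 0.62), Aldh1a3 (-1.94 ± 0.87) and Lin28b (-2.39 ± 1.22) were not called. Another probe of H19 was higher (1.53, adjusted p = 0.00711), and another of Mest, above background on no hepatocyte array, was at least 5.4-fold lower. Among other probes of Plagl1, that at 1.78 was called higher (adjusted p = 0.015). Those at 0.55 and 0.14 were not called (adjusted p = 0.27 and 0.811). The call of Thy1 ended under both other scalings and when most single arrays were left out, and that of Plagl1 under scaling to the median (0.386).

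Genes of cell division were lower in hepatocytes. Of 45 mitosis genes 43 were called lower and 1 higher (median -5.1, and -5.01, -4.56 and -5.79 within slides), the highest share called lower of the 45 lists. Mki67, the proliferation marker, was at 2.83, 2.54, 2.69 and 3.46 in undifferentiated cells and -4.29, -3.97, -2.22 and -5.37 in primary hepatocytes, a difference of -6.84 ± 0.59 (adjusted p = 1.99e-07). Plk1, the polo kinase of mitosis, was at 2.96, 2.81, 2.91 and 3.64 in undifferentiated cells and -4.23, -4.44, -1.99 and -5.27 in primary hepatocytes, a difference of -7.06 ± 0.54. Hepatocyte array 3 was the highest of the 4 in both genes and remained below every undifferentiated array. Top2a (-7.35 ± 0.44), which untangles chromosomes, Ccnb2 (-5.41 ± 0.46) and Ccna2 (-5.63 ± 0.57), cyclins, and Cdk1 (-5.64 ± 0.39), their kinase, were lower too. Of the other 2 probes of Cdk1, 1 was above background on no hepatocyte array and at least 22-fold lower, and 1, with a difference of 0.28, was not called. Pttg1 (0.26 ± 0.18) was not called, though its other probe was called lower (-0.89, adjusted p = 0.00752). Spc24 (1.08 ± 0.34), a kinetochore protein, was higher, though not with scaling to the median (0.63, adjusted p = 0.113).

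DNA replication genes were lower in 36 of 48 cases and higher in 2 (median -1.67). Mcm2, a subunit of the replicative helicase, was at 0.96, 0.79, 0.66 and 1.44 in undifferentiated cells and -3.14, -2.35, -3.11 and -3.37 in primary hepatocytes, a difference of -3.95 ± 0.26. Rrm2 (-5.63 ± 0.45), which makes deoxynucleotides, and Uhrf1 (-7.2 ± 0.46), which maintains DNA methylation, were lower. Another probe of Uhrf1, above background on no hepatocyte array, was at least 2.24-fold lower. Mcm10, a replication initiation factor, went the other way, at 0.41, 0.28, 0.06 and 1.05 in undifferentiated cells and 4.76, 5.35, 5.54 and 5.45 in primary hepatocytes, a difference of 4.83 ± 0.36 (adjusted p = 4.01e-08). Among cell cycle inhibitors and D cyclins 15 of 21 were lower and 1 higher. Ccnd1, the cyclin of growth factor response, was at 6.36, 6.83, 6.32 and 6.78 in undifferentiated cells and -0.38, -0.22, 0.66 and -0.87 in primary hepatocytes, a difference of -6.77 ± 0.42. The inhibitors were lower along with it: Cdkn2a, of the senescence locus, was at 3.04, 3.83, 3.76 and 3.93 in undifferentiated cells and at least 840-fold lower, Cdkn2b differed by -7.99 ± 0.2 and Cdkn1a, the p21 inhibitor, by -7.94 ± 0.33.

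Promoters of mitosis genes are shown because CCAAT, the box of NF-Y, was found in most of them. TTTGAA, the sequence of the cell cycle homology region, was found in some. A match at any position of the window was counted. Searched on both strands, CCAAT was found in 73% of 37 mitosis promoters, against 35.8% of the promoters of tested genes and 34.5% of all promoters, and TTTGAA in 29.7%, against 12.7% and 16.3%. Amino acid breakdown promoters held CCAAT in 54.1%, and TTTGAA was more frequent in P450 promoters, as given above. DNA replication promoters held CCAAT in 61.5% and the E2F motif GGCGGGAA in 10.3%, against 35.8% and 2.77% of the promoters of tested genes (34.5% and 1.87% of all promoters). No match was found in mitosis promoters for CAAAGTCCA or TTGCNNAA. In the windows of Ccnb2 (chr9:70421555-70421804, minus strand) and Mki67 (chr7:135716380-135716629, minus strand) the matches of CCAAT and TTTGAA are in capitals, 3 of CCAAT in each.
Ccnb2: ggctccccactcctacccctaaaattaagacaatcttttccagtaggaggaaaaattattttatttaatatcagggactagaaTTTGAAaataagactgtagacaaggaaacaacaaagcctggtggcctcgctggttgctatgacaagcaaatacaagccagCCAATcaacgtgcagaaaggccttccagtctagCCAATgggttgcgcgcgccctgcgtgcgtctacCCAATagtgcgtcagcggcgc
Mki67: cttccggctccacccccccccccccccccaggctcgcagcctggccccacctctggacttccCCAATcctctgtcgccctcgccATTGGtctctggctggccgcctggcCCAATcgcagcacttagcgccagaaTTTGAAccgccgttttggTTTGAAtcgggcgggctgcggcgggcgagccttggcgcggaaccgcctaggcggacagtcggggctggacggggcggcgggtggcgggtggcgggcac

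Signalling genes were divided, as were all genes tested (37.6% higher and 26.6% lower). In the Notch pathway 8 of 23 genes were higher (34.8%) and 10 lower (43.5%). The median was 0.01, and -0.44 when arrays were scaled to their median. The ligand Jag1 was at 1.2, 2.07, 1.9 and 2.05 in undifferentiated cells and -4.0, -3.12, -2.99 and -3.57 in primary hepatocytes, a difference of -5.22 ± 0.32, Jag2 was at least 50.9-fold lower and the targets Hey1 (-5.23 ± 0.7) and Hes1 (-3.11 ± 0.44) were lower, while the ligand Dll1 (3.79 ± 0.37) was higher. Among Wnt genes 9 of 28 were higher (32.1%) and 8 lower (28.6%), near the shares among all genes (median 0.72). Wnt10a, a ligand, was at 3.32, 5.44, 4.69 and 3.38 in undifferentiated cells and differed by -11.83 ± 0.63, Fzd2, a receptor, was at least 78.7-fold lower, and Nkd2 (5.17 ± 0.59), a feedback inhibitor, was higher. Among growth factors and receptors 14 of 35 were higher (40%) and 15 lower (42.9%). Ligands such as Hbegf (-6.67 ± 0.36) and Nrg1 (-8.57 ± 0.45) were lower. The receptors Egfr (2.66 ± 0.4), Met (2.53 ± 0.22) and Erbb3 (4.84 ± 0.73) were higher.

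Chemokines and inflammatory mediators were lower in 17 of 35 cases and higher in 11 (median -0.92, and -3.46 over the genes above background on every array of a group; leaving out 1 array at a time gave -1.68 to -0.58). Ccl2, a chemokine for monocytes, was at 6.25, 6.91, 7.56 and 7.11 in undifferentiated cells and -5.29, -5.27, -5.92 and -6.43 in primary hepatocytes, a difference of -12.69 ± 0.53 (adjusted p = 1.12e-10), Cxcl5 differed by -11.79 ± 0.71 and Ptgs2, the inducible cyclooxygenase, was at least 205-fold lower. Cxcl12, a chemokine for stem cells and lymphocytes, was higher (8.54 ± 1.04). Interferon-stimulated genes were higher in 21 of 31 cases and lower in 3 (median 2.0, and 1.66, 2.36 and 1.78 within slides), among them the antiviral enzyme Rsad2 (5.24 ± 0.75) and the immunoproteasome subunit Psmb9 (5.08 ± 0.4), whereas Ifit2 was lower (-4.3 ± 0.48). Immediate-early and heat shock genes were lower in 10 of 24 and higher in 3, with Fosl1, an AP-1 subunit, at least 118-fold lower, Ier3 at -8.05 ± 0.45, and Fos not called (1.23 ± 0.91). Of 30 NRF2 and glutathione genes 13 were higher and 12 lower, such as Mgst1 (4.77 ± 0.19) and G6pdx (-5.26 ± 0.42). Of 52 ribosomal protein genes 38 were lower and 1 higher, by little: the median was -0.7 (-1.14 with each array scaled to its median), and Rps19 was at 5.51, 5.86, 5.89 and 5.95 in undifferentiated cells and 4.1, 3.85, 4.08 and 4.19 in primary hepatocytes, a difference of -1.75 ± 0.16.

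Many markers of other liver cells were also called higher on the hepatocyte arrays, but many of them are dim. Dim genes leaned the same way: of 598 genes above background on no array of either group, 202 were called higher and 1 lower (median 1.3). Among the markers, 8 of Kupffer cells and leukocytes and 6 of endothelium were above background on no undifferentiated array. Of 33 tested Kupffer cell and leukocyte markers 27 were called higher and 3 lower, of 25 endothelial markers 18 and 2, of 21 stellate cell and fibroblast markers 14 and 1, and of 8 red blood cell genes 6 and none. Stab2, a scavenger receptor of sinusoidal endothelium, was at -7.67, -6.73, -7.7 and -8.9 in undifferentiated cells and 0.51, 1.14, 0.81 and 0.48 in primary hepatocytes, a difference of 8.49 ± 0.8. Clec4f, a Kupffer cell lectin, was at -7.75, -7.58, -7.92 and -9.54 in undifferentiated cells and -2.97, -1.66, -1.62 and -2.96 in primary hepatocytes, a difference of 5.9 ± 0.46, and Vsig4, another Kupffer cell receptor, was at least 51.2-fold higher. Alas2, the aminolevulinate synthase of red cell precursors, was at 3.82, 4.12, 4.11 and 4.31 and at least 3036-fold higher. The summed linear level of the list, in units of the 75th percentile, was 6.86 to 11.5 on undifferentiated and 18.6 to 21.4 on hepatocyte arrays for endothelial markers, and 16 to 22.3 against 18.2 to 24.7 for Kupffer cell and leukocyte markers. It was 0.0711 to 0.262 against 15.3 to 24 for red blood cell genes. For stellate cell and fibroblast markers it was higher on undifferentiated arrays, at 15.8 to 22.5 against 2.58 to 6.1. Bright genes weigh most in such a sum, such as Alas2 among red blood cell genes. Another is Itgam among Kupffer cell and leukocyte markers, at a mean of 3.19 in undifferentiated cells and 2.49 in hepatocytes. This probe of Itgam was called lower, and its other probes were not called (0.36) or called higher (1.45). The sums thus do not give the amount of a cell type. Every endothelial marker tested was above background on at least 1 hepatocyte array and 23 of 25 on all 4. The part of these cells in the differences above was not tested.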

How the data were processed

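RNA of 17 samples was read on single-colour Agilent mouse arrays, 4 of them of primary hepatocytes and 4 of undifferentiated cells. The deposited scanner files give an intensity per spot, processed by Feature Extraction 10.5.1.1 per the file headers (9.53 per the submitters' processing notes). The authors' deposited table gives 1 score per probe, a signed fold change between group means, and a false discovery rate in percent. Which test and normalization it rests on is not given in the sources used here.

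Control spots and outlier spots were left out, processed intensities were averaged per probe and log2 values were taken relative to the 75th percentile of each array. Probes well above background on at least 2 of 17 arrays were kept (32305), and the brightest probe stood for its gene. limma 3.58.1 in R 4.3.3 fitted all 5 groups of 17 arrays, which share 1 estimate of spread, with the Benjamini-Hochberg adjustment at 0.05. The number of arrays limits the precision.

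The members, lists and motifs were chosen with earlier results of these data known. Named genes were the 15 largest differences and the 8 largest bounds per direction, members of gene lists by size of change, isozymes, and all members of 5 lists. The 8 arrays lay on 5 slides, of which 3 held both groups. Alternatives were other scalings, background corrections, filters, probe rules, slide or replicate blocks, array weights, left-out arrays and the authors' table. In that table, 13 probes without a number and 37 at the largest positive number a spreadsheet holds were left out, since neither gives a fold. This was decided after the values were seen. The counts of calls in the same and in opposite directions against that table do not cover these probes. Same-numbered arrays did not deviate together (correlations -0.196 to 0.0983), so replicate numbers were not taken as pairs. Promoter windows are from RefSeq, build GRCm38.p6. Some named genes are not reported here.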

Additional observations from a re-analysis of the deposited data

Results flagged for a closer look

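In 43 of 706 groups of 4 arrays tested (each named gene, list mean and array measure in each group), 1 array stood apart from the other 3 by Dixon's criterion, and chance gives about 1 in 20 such groups. Each is given as its log2 level with the range of the other 3 in parentheses, and its cause was not tested.

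On undifferentiated array 4 this was the case for Birc5 at 4.35 (3.54 to 3.64), Cebpb at 3.14 (3.45 to 3.47), Cyp2e1 at -6.41 (-5.08 to -4.87) and Hbegf at 3.62 (2.17 to 2.26). It also held there for Igfals at -9.67 (-6.66 to -6.09), Mest at -4.0 (-5.44 to -5.2), Nr0b2 at -8.18 (-6.6 to -6.31) and Nr1h2 at 3.1 (2.67 to 2.7). It also held there for Nr2f6 at 4.2 (3.85 to 3.89) and Top2a at 0.7 (0.19 to 0.24). On undifferentiated array 1 this was the case for Asap1 at 2.04 (2.29 to 2.34), Cyp2f2 at -7.46 (-9.43 to -9.23), F9 at -0.74 (-2.5 to -2.41) and Gata6 at 2.14 (1.77 to 1.84). It also held there for Krt18 at 7.6 (7.93 to 7.99), Nuak2 at -0.23 (0.92 to 1.05), Otc at -5.86 (-9.7 to -9.31) and Phlda3 at 4.87 (5.4 to 5.43). On hepatocyte array 1 this was the case for Cd81 at 5.95 (6.28 to 6.34), Egfr at 5.07 (4.53 to 4.56), Fbln2 at -3.53 (-5.45 to -5.42) and Per1 at 0.83 (2.19 to 2.42). It also held there for the mean of the list cytochrome P450 families 1 to 4 at 3.54 (3.83 to 3.87). On hepatocyte array 2 this was the case for F9 at 3.05 (3.28 to 3.32), Ppara at 5.29 (5.32 to 5.33), Vtn at 8.04 (8.17 to 8.18) and the mean of the list DNA replication at -1.32 (-1.39 to -1.38). It also held there for the mean of the list plasma proteins at 6.8 (6.98 to 7.0). On hepatocyte array 4 this was the case for Acat2 at 5.18 (5.04 to 5.06), Cdh1 at 0.21 (0.94 to 1.04), Nr1h2 at 3.33 (3.05 to 3.1) and Slc27a5 at 8.42 (8.04 to 8.1). It also held there for Tef at 6.06 (5.66 to 5.71). On undifferentiated array 2 this was the case for Anxa3 at 5.27 (5.14 to 5.15), Ass1 at 2.68 (0.04 to 0.41), Cdkn1a at 2.47 (3.1 to 3.13) and the mean of the list Notch pathway at -2.34 (-2.44 to -2.43). On hepatocyte array 3 this was the case for Cdk1 at -2.53 (-4.1 to -3.89), Nr3c1 at 3.75 (3.42 to 3.45) and Onecut2 at 4.39 (3.88 to 3.96). On undifferentiated array 3 this was the case for Kit at -9.48 (-8.51 to -8.37), Lifr at -3.22 (-1.78 to -1.53) and Spp1 at 3.86 (4.53 to 4.64).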

How the results depend on the processing

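Counts of called genes in 23 lists and over all genes were compared under each setting. Leaving out 1 array at a time gave 8657 to 9990 genes higher and 6603 to 6720 lower. Under normexp background correction 14820 genes were higher, and without a filter on dim probes 12843 were at least 2-fold higher. With scaling to the median, 29 respiratory chain genes were called. With only genes kept that were detected on all 8 arrays, an alternative chosen after seeing the data, fewer genes were tested: 4917 were at least 2-fold higher and 3269 lower. Called higher were then 29 plasma protein, 13 coagulation, 13 complement, 24 P450, 25 amino acid breakdown, 17 bile acid, 12 Kupffer cell and leukocyte and 6 endothelial genes, and called lower were 20 mitosis, 17 YAP, 17 matrix and 11 biliary genes. The remaining list counts were within 1.5 times those reported. The replicate block gave 16436 called genes, 16204 of them shared with the 16680 in the same direction. Slide as a block gave 17043 and as a random block 17046. The authors' deposited table held 9733 genes higher and 10050 lower at its false discovery rate under 5%, with 15708 called in both in the same direction and 15 in opposite directions. Called in opposite directions were also 228 genes under normexp, 39 with the mean of a gene's probes, 13 with genes detected on all 8 arrays, 11 under quantile normalization and 1 with genes above background on every array of a group. Under normexp list medians were 3.92 for the urea cycle, -1.32 for biliary, -0.8 for progenitor, -1.67 for matrix and -3.27 for mitosis genes. Without undifferentiated arrays 1 and 2 the median was -1.42 for progenitor genes and -1.43 for chemokines.

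Among named genes, the called genes F10 (quantile normalization and the authors' table) and Slc10a1 (the authors' table) changed sign. The others given here changed sign without having been called. The cause was not tested. Median scaling gave Clock -0.346, Nfil3 -0.061, Nr1h2 -0.093, Per1 -0.436, Ppargc1a -0.127, Pttg1 -0.187 and Rarb -0.344. Quantile normalization gave F10 -0.123, Per1 -0.108 and Pttg1 -0.127. Normexp background correction gave Aldh1a3 0.62, Arg2 0.671, Cry1 0.195, Cyp1a1 -0.008, Epcam 0.923, Lin28b 0.285, Mest 0.696, Per1 -0.071, Rbms3 0.409, Vgll3 0.745 and Zhx2 0.585. The mean of a gene's probes gave Dlc1 0.661 and Pttg1 -0.314. Slide as a block gave Pparg 0.009. Array weights gave Cyp1a1 -0.299, Mest 0.18, Rarb -0.009 and Rbms3 0.109. Leaving out undifferentiated arrays 1 and 2 gave H19 2.29, Per1 -0.048, Pfkl 0.07 and Pparg 0.094. The authors' deposited table gave F10 -0.269, Per1 -0.092, Pttg1 -0.189 and Slc10a1 -0.048. Over the left-out single arrays, the lowest and highest differences were Clock -0.027 to 0.266, Cyp1a1 -1.27 to 1.41, Dlc1 -0.484 to 0.268, Epcam -0.588 to 0.04, H19 -2.94 to 0.224, Mest -0.295 to 0.297, Per1 -0.159 to 0.371, Pfkl -0.393 to 0.03, Pparg -0.403 to 0.14, Ppargc1a -0.091 to 0.665, Rarb -0.069 to 0.249 and Rbms3 -1.29 to 0.762. Signal not above background limits genes with bounds, and hybridisation to related sequences limits gene families.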
